A study of Mus musculus with 4 samples.

Results

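The genes described here are 10 genes for the handling of epoxides, glutathione and oxidants, most of them targets of the transcription factor NRF2, in C2C12 myoblasts with lowered *Hnrnpl*. They are *Ephx1*, *Nqo1*, *Gclc*, *Gclm*, *Gsta4*, *Gstm1*, *Gstp1*, *Txnrd1*, *Srxn1* and *Nfe2l2*, 10 of 56748 gene IDs in the count files. The list was put together because *Ephx1* was much higher in the knockdown in these same libraries. Their differences between knockdown and scrambled are therefore given as a description with standard errors and without p-values. Each standard error (SE) was worked back from the statistic of the edgeR quasi-likelihood test and does not measure the spread between replicates. It can lie below that spread (*Gsta4*, SE 0.26 against a within-group SD of 0.69 in log2) or above it (*Txnrd1*, 0.14 against 0.078). Where one of the 10 genes is said to be called, this says only that it passed the thresholds in the contrast it was selected on. The question behind the comparison was how lowering *Hnrnpl*, the gene for the RNA-binding protein hnRNP L, changes the RNA of myoblasts.

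C2C12 is a mouse myoblast line. Of 4 libraries of direct nanopore RNA reads, 2 came from cells with a scrambled shRNA and 2 from cells with a cocktail of shRNAs against *Hnrnpl*. Both groups were labelled WT, carried plasmids with an eGFP reporter, were selected with puromycin and were grown in growth medium, and batch 1 and batch 2 each held 1 library of each group. Replicates were passages of the same selected stable line, so that the spread between them does not include the spread between independently made lines, and a difference between the lines that predates the shRNA cannot be told apart from one that follows it. An exact permutation test of 2 against 2 libraries cannot give a p below 0.333.

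The libraries held 1229424 to 1676911 reads counted to genes, which were 56.5 to 57.8% of the reads in the files. *Hnrnpl* itself had 358 (scrambled 1), 656 (scrambled 2), 242 (knockdown 1) and 258 (knockdown 2) reads. Its log2 fold change was -0.78 (SE 0.18; edgeR quasi-likelihood test with Benjamini-Hochberg adjustment, adjusted p = 0.0112). Without scrambled 2 it was -0.48 (adjusted p = 0.194) and without knockdown 1 it was -0.62 (adjusted p = 0.150), so this call rested on those libraries. Of the markers of the labelled cell type, *Myf5* and *Des* were read in every library, whereas *Myod1* had 1 read in all and *Pax7* had 0. The summed myoblast markers were lower in the knockdown, with 463 and 545 CPM (the reads of a gene relative to all counted reads of its library) in the scrambled and 358 and 300.1 CPM in the knockdown. Most of this sum was *Des*, the muscle intermediate filament gene, at 269 and 341 CPM in the scrambled and 225 and 197 CPM in the knockdown libraries (log2 fold change -0.56, SE 0.15, edgeR adjusted p = 0.0309). *Des* was not called with the replicate block (edgeR adjusted p = 0.0526), without scrambled 2 (-0.41, edgeR adjusted p = 0.297), knockdown 1 (-0.62, edgeR adjusted p = 0.0970) or knockdown 2 (-0.50, edgeR adjusted p = 0.117), or with the parametric fit of DESeq2 (adjusted p = 0.208 and 0.234). *Cdh15*, a cadherin of muscle precursor cells, had 113 and 152 reads in the scrambled and 25 and 14 in the knockdown libraries. It was called lower (log2 fold change -2.55, SE 0.24, edgeR adjusted p = 2.03e-06). *Myf5*, a myogenic transcription factor, was at 113, 113, 115 and 91.9 CPM (log2 fold change -0.16, edgeR adjusted p = 0.616). In counts scaled to a common library size, both of its knockdown libraries (157 and 132) lay below both scrambled ones (164 and 160). The same held for 26.0% of all genes. Of the markers tested, *Cdh15* and *Des* were thus called lower and *Myf5* was not. The part of these differences in the values that follow was not tested, and in such bulk RNA fewer cells of a type and less RNA per cell cannot be told apart. Markers of hepatocytes and epithelial cells, which are rich in *Ephx1* or glutathione transferases, were all at 0 reads. Summed macrophage markers stayed between 1.79 and 5.69 CPM, with *Ptprc* and *Adgre1* at 0.

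NRF2, encoded by *Nfe2l2*, is held in the cytoplasm and passed on for degradation by KEAP1. Oxidants and electrophiles modify cysteines of KEAP1, NRF2 then builds up, enters the nucleus and binds antioxidant response elements together with small MAF proteins. Its classical targets make glutathione, join it to electrophiles, reduce quinones and keep thioredoxin and peroxiredoxins reduced. EPHX1, the microsomal epoxide hydrolase, turns reactive epoxides of xenobiotics into diols.

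Antioxidant response elements share the core TGACNNNGC, where N is any base. The 1000 bases before the start of the canonical transcript of each gene (GRCm39, GENCODE vM39) were searched for it on both strands. For *Ephx1*, *Txnrd1* and *Gsta4* other transcripts start farther upstream, so that these windows lie inside the annotated span of the gene, as do the last few bases of that of *Srxn1*. The genes shown are the 4 of the 10 that held a match, and the capitals mark it with 10 bases on each side, read 5′ to 3′ along the strand of the match.
*Ephx1*: acagacaagaTGACCAGGCacaccactgt
*Gclm*: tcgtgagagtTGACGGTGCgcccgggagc
*Txnrd1*, the farther match: gcactggctgTGACCCTGCcaaatagttg
*Txnrd1*, the nearer match: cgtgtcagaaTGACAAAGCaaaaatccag
*Nfe2l2*: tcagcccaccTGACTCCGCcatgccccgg
The match of *Ephx1* was centred 612 bases before the start of the canonical transcript on the other strand (chr1:180845732-180845760), and that of *Gclm* 50 bases before it on the other strand (chr3:122039062-122039090). *Txnrd1* held both of its matches on the other strand, 367 bases (chr10:82694632-82694660) and 61 bases (chr10:82694938-82694966) before the canonical start, and the matches of *Ephx1* and *Txnrd1* are thus within the gene as annotated. That of *Nfe2l2* lay on the strand of the gene, 258 bases before the start (chr2:75535229-75535257). Of 21757 protein-coding promoters of the same length, 28.2% held the core, so that a match in 4 of 10 says little about these genes. The narrower form TGACTCAGC, which is one case of the core and also holds the AP-1 motif TGACTCA, was in 0 of the 10 windows and in 1.33% of all. A match here is a match of letters and not a measured binding site, and windows without one may hold elements farther away.

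All 10 genes passed the filter on low counts, and the least covered, *Gclc*, had 294 reads in all. A gene was called when its adjusted p in edgeR was under 0.05, its absolute log2 fold change over 0.5 and its mean normalized count over 10, where the TMM factors of edgeR were used to bring the libraries to a common size. By this rule *Ephx1*, *Nqo1*, *Gclm*, *Txnrd1* and *Srxn1*, 5 of the 10, were called higher and 0 lower, against 2.33% called higher and 3.22% called lower of the 8670 genes tested. Since the list was chosen from this contrast, nothing is read from that share. Both knockdown libraries lay above both scrambled ones for 7 of the 10 genes, as for 26.4% of all genes, and below them for 0, as for 26.0% of all genes. The groups of *Gclc*, *Gsta4* and *Nfe2l2* overlapped. The median log2 fold change was 0.52 over the 10 genes and 0.49 without *Ephx1*, whereas that of all genes tested was -0.0006. The choice of the list bears on these medians and on the counts of groups apart too, so nothing is read from them. Nearest the threshold of 0.5, *Gclm* was inside at 0.54 and *Gstm1* outside at 0.49. The fold threshold alone did not keep *Gstm1* out, since 0 of 15 alternative settings called it. With upper quartile scaling factors it was at 0.51 and still not called.

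**Figure D1:**
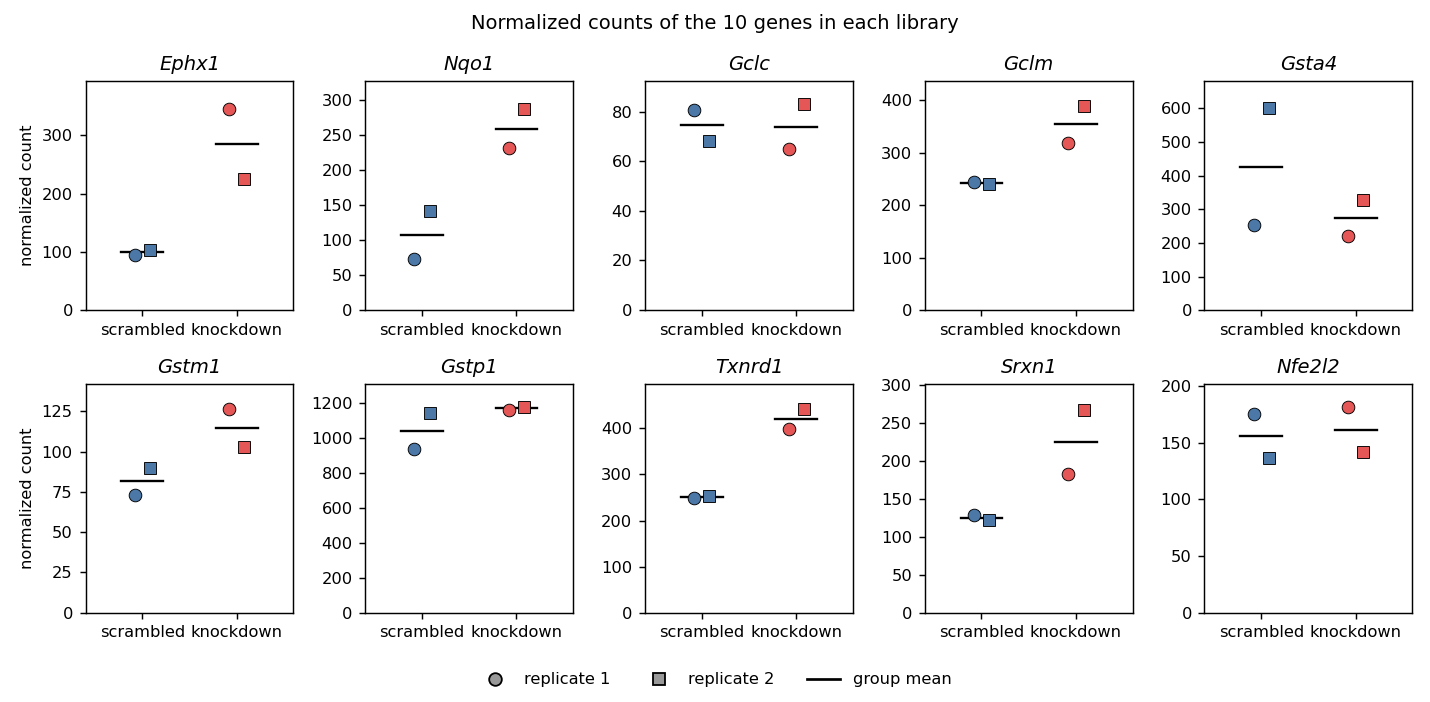
Normalized counts (y axis, from 0) of each of the 10 genes in the scrambled (blue) and knockdown (red) libraries, with circles for replicate 1, squares for replicate 2 and lines for group means. *Ephx1*, *Nqo1*, *Gclm*, *Gstm1*, *Gstp1*, *Txnrd1* and *Srxn1* have both knockdown points above both scrambled points, whereas scrambled 2 stands alone at the top for *Gsta4*.

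*Ephx1* (ENSMUSG00000038776.14) lies on the minus strand of chromosome 1, from 180803775 to 180848537. Its reads numbered 91 (scrambled 1), 123 (scrambled 2), 346 (knockdown 1) and 193 (knockdown 2). The knockdown libraries were thus well apart from the scrambled ones, which were close to each other. Normalized counts went from 99.4 ± 5.80 in the scrambled to 285 ± 84.3 in the knockdown (SD, n = 2), a fold of 2.87 and a log2 fold change of 1.52 (SE 0.19). Within batch 1 the log2 difference was 1.86 and within batch 2 it was 1.12. Knockdown 1 was the higher of its group, and the ratio of knockdown 2 to knockdown 1 was 0.654, with a 95% interval of 0.546 to 0.783 from counting error only. Without knockdown 1 the log2 fold change was 1.18 and without knockdown 2 it was 1.79. It ranked 26 of 202 called-higher genes by log2 fold change, and 0.496% of the genes tested were at or above its value. The other epoxide hydrolases were scarcely read. *Ephx2*, the soluble enzyme, had 2 reads and *Ephx3* 1 read in all, both in scrambled 2, and *Ephx4* had 0.

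*Nqo1* (ENSMUSG00000003849.9; chromosome 8, 108113835 to 108129934, minus strand) encodes NAD(P)H quinone dehydrogenase, which reduces quinones to hydroquinones and is a standard readout of NRF2. It had 70 and 168 reads in the scrambled and 232 and 245 in the knockdown libraries. The lowest knockdown library was above the highest scrambled one, although the scrambled libraries differed from each other by a ratio of 1.93 (95% interval 1.45 to 2.59). Means were 107 ± 48.1 and 259 ± 39.0 normalized counts (SD, n = 2), a log2 fold change of 1.24 (SE 0.22), with 1.66 within batch 1 and 1.02 within batch 2. Without scrambled 1 it was 0.87 and without scrambled 2 it was 1.81. *Nqo1* passed the thresholds in each of these cases but not with the local fit of DESeq2.

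**Figure D2:**
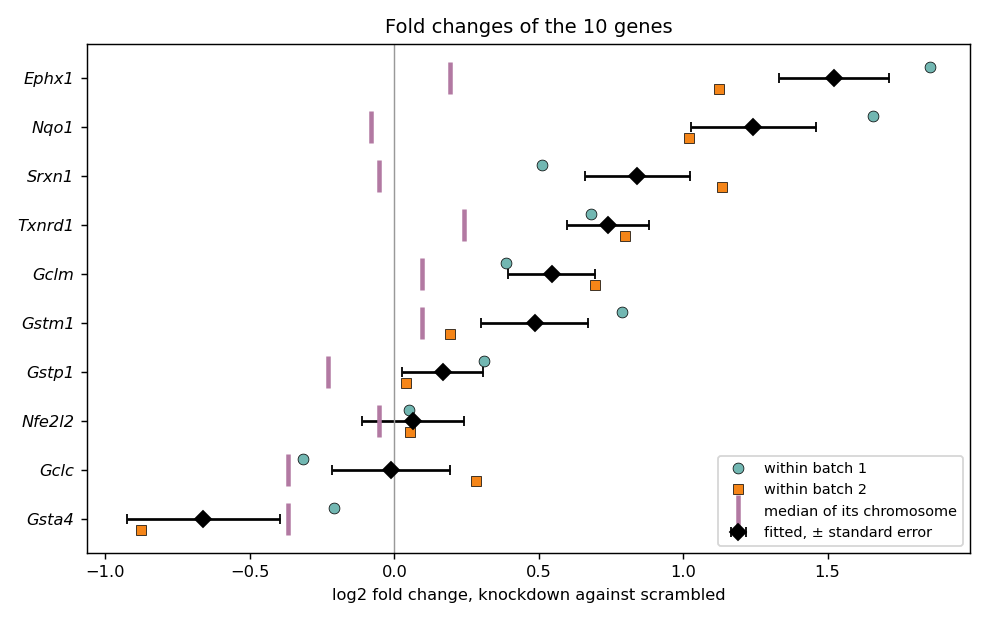
Log2 fold change of the knockdown against the scrambled (x axis) for each of the 10 genes, with diamonds and bars for the fitted value ± standard error, circles and squares for the differences within batch 1 and batch 2, and vertical ticks for the median of all tested genes on the same chromosome. *Ephx1* at 1.52 and *Nqo1* at 1.24 lie farthest right, and the batches differ in sign for *Gclc*.

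The subunits of glutamate-cysteine ligase, which makes the first and rate-limiting step of glutathione synthesis, are described in turn, and the difference between them was not tested. *Gclc*, the catalytic subunit (ENSMUSG00000032350.10; chromosome 9, 77661797 to 77701770, plus strand), had 77 and 81 reads in the scrambled and 65 and 71 in the knockdown libraries. Its normalized means of 74.4 ± 8.82 and 73.9 ± 12.9 (SD, n = 2) were nearly equal and the groups overlapped. The log2 fold change was -0.01 (SE 0.20), and the sign differed between batch 1 (-0.32) and batch 2 (0.28). Leaving out any library gave -0.19 to 0.17. *Gclm*, the modifier subunit (ENSMUSG00000028124.16; chromosome 3, 122039126 to 122065061, plus strand), had 233 and 286 reads in the scrambled and 320 and 333 in the knockdown libraries. Here the scrambled libraries were close, at 242 ± 2.37 normalized counts, and both knockdown libraries were higher, at 354 ± 49.8 (SD, n = 2). The log2 fold change was 0.54 (SE 0.15), with 0.39 within batch 1 and 0.69 within batch 2. *Gclm* was not called by DESeq2 in any of 4 configurations and was no longer called with the batch as a replicate block (0.54), nor without scrambled 1 (0.55), scrambled 2 (0.53) or knockdown 2 (0.39).

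None of the 3 glutathione transferases, which join glutathione to electrophiles, was called. *Gstp1*, the pi class enzyme (ENSMUSG00000060803.7; chromosome 19, 4085405 to 4088068, minus strand), had 895 and 1363 reads in the scrambled and 1165 and 1010 in the knockdown libraries. After normalization the scrambled mean was 1042 ± 148 and the knockdown mean 1171 ± 13.96 (SD, n = 2), a log2 fold change of 0.17 (SE 0.14). The knockdown libraries lay above the scrambled ones, by a margin smaller than the spread between the scrambled libraries, and the log2 fold change was 0.03 without scrambled 1 and 0.31 without scrambled 2. *Gstm1*, of the mu class (ENSMUSG00000058135.13; chromosome 3, 107919380 to 107925380, minus strand), had 70 and 107 reads in the scrambled and 127 and 88 in the knockdown libraries. Its means were 81.7 ± 11.8 and 115 ± 16.7 normalized counts (SD, n = 2), a log2 fold change of 0.49 (SE 0.19) with 0.79 within batch 1 and 0.19 within batch 2. The groups did not overlap, but it was not called.

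*Gsta4*, an alpha class enzyme that conjugates the lipid peroxidation product 4-hydroxynonenal (ENSMUSG00000032348.7; chromosome 9, 78090056 to 78117763, plus strand), was the gene with the widest spread between the scrambled libraries. It had 242 and 714 reads in the scrambled and 220 and 280 in the knockdown libraries. Scrambled 2 was far above the other 3 libraries, and replicate 2 was the higher library of both groups, with a ratio of 1.49 in the knockdown (95% counting interval 1.25 to 1.79). The means were 427 ± 246 and 273 ± 76.4 normalized counts (SD, n = 2) and the log2 fold change -0.66 (SE 0.26), which was not called. Within batch 1 the log2 difference was -0.21 and within batch 2 it was -0.88, lower in the knockdown in both. Without scrambled 2, which leaves both knockdown libraries against the scrambled library of batch 1, the log2 fold change was 0.10, so its direction turned, and without scrambled 1 it was -1.14 and called lower. The ratio of scrambled 2 to scrambled 1 was 2.37 (95% counting interval 2.05 to 2.75). Of 4501 genes with a mean normalized count over 50, 5 genes (0.111%) had a ratio over 2, namely *Prl2c3*, *Prl2c2*, *Gsta4*, *Aldh3a1* and *Rrp1b*. *Aldh3a1*, an aldehyde dehydrogenase, is also an NRF2 target and had 120 and 353 reads in the scrambled and 140 and 96 in the knockdown libraries, a ratio of 2.36 between the scrambled ones. *Gsta2* had 21 reads in scrambled 2, 3 in knockdown 2 and 0 in the other libraries. Of the other 9 genes, *Nqo1* had a ratio of 1.93, *Gstm1* 1.23 and *Gstp1* 1.22, *Ephx1*, *Gclm*, *Txnrd1* and *Srxn1* were between 0.947 and 1.09, and *Gclc* and *Nfe2l2* were at 0.845 and 0.779. Over 55 other pathway genes with a mean normalized count over 50 the median ratio was 1.001, with 28 genes over 1 and 27 under it, and *Aldh3a1* was the 1 gene over 2.

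**Figure D3:**
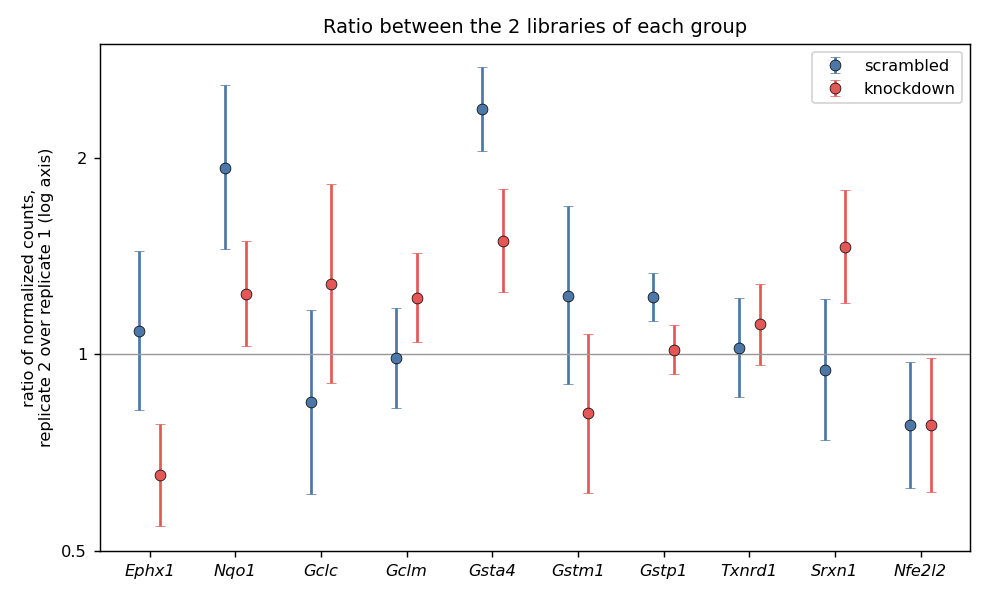
Ratio of replicate 2 to replicate 1 in normalized counts (y axis, log scale) for each of the 10 genes in the scrambled (blue) and knockdown (red) groups, with bars for the 95% interval from counting error. *Gsta4* at 2.37 and *Nqo1* at 1.93 stand out in the scrambled group, and *Ephx1* at 0.654 is the lowest in the knockdown group.

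Both genes of the thioredoxin system were higher. *Txnrd1*, the cytosolic thioredoxin reductase (ENSMUSG00000020250.12; chromosome 10, 82669785 to 82733546, plus strand), had 237 and 302 reads in the scrambled and 399 and 378 in the knockdown libraries. Each group was tight, at 251 ± 4.19 and 420 ± 31.3 normalized counts (SD, n = 2). The log2 fold change was 0.74 (SE 0.14), with 0.68 within batch 1 and 0.80 within batch 2, and leaving out any library gave 0.66 to 0.81. *Srxn1*, sulfiredoxin, which repairs overoxidized peroxiredoxins (ENSMUSG00000032802.9; chromosome 2, 151947436 to 151957687, plus strand), had 123 and 145 reads in the scrambled and 184 and 229 in the knockdown libraries. Means were 125 ± 4.81 and 225 ± 59.6 normalized counts (SD, n = 2), a log2 fold change of 0.84 (SE 0.18). The knockdown libraries differed by a ratio of 1.46, and the difference was 0.51 within batch 1 and 1.13 within batch 2. Without knockdown 2 the log2 fold change of *Srxn1* was 0.55 and it was not called, nor was it with the parametric fit of DESeq2.

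*Nfe2l2*, the gene for NRF2 (ENSMUSG00000015839.7; chromosome 2, 75504739 to 75534985, minus strand), had 167 and 162 reads in the scrambled and 182 and 121 in the knockdown libraries. Replicate 2 was the lower library of both groups, with ratios to replicate 1 of 0.779 and 0.780. Means were 156 ± 27.3 and 161 ± 28.2 normalized counts (SD, n = 2), and the log2 fold change of 0.07 (SE 0.18) was smaller than its error. Its direction turned without scrambled 2 (-0.12) or without knockdown 1 (-0.13). These values are RNA levels, and NRF2 activity is set largely at the protein. *Keap1*, its inhibitor, had 25 and 34 reads in the scrambled and 37 and 26 in the knockdown libraries, a log2 fold change of 0.30 (SE 0.29; edgeR, Benjamini-Hochberg adjusted p = 0.593).

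Per kilobase of the canonical transcript, the level of *Gstp1* was highest in both groups, at 806 ± 131 CPM per kb in the scrambled and 923 ± 20.3 in the knockdown (SD, n = 2). *Gsta4* came next in the scrambled group with 142 ± 84.3 CPM per kb, whereas in the knockdown group its 91.9 ± 22.7 could not be placed apart from *Txnrd1* at 89.9 ± 3.66 CPM per kb. In the scrambled group *Txnrd1* (52.8), *Gstm1* (41.4), *Nfe2l2* (30.2), *Nqo1* (28.2 ± 13.2), *Gclm* (26.7), *Ephx1* (17.6), *Gclc* (15.1) and *Srxn1* (12.2) came next in CPM per kb. The level of *Nqo1* cannot be placed apart from its neighbours in that order because of its spread. In the knockdown group *Nqo1* was at 68.9 ± 8.08, *Gstm1* at 59.4 ± 10.7 and *Ephx1* at 51.7 ± 17.0 CPM per kb, and the spreads of neighbours in this order overlapped. Direct RNA sequencing reads each molecule from its 3′ end, so dividing by transcript length may place long transcripts too low.

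Median log2 fold changes differed between chromosomes, and the genes were therefore set against their surroundings. The 20 nearest tested genes of *Ephx1*, 10 on each side, had a median of 0.19 and ranged from -0.09 for *Cnih4* to 0.53 for *Trp53bp2*. Positive values were seen for 18 of them, none was called by edgeR or by the DESeq2 Wald test with local fit, and 2 had an unadjusted p under 0.05. *Ephx1* at 1.52 lay above all of them, but it was chosen for its rise in this contrast, so nothing is read from its place. The neighbours of *Nqo1* had a median of 0.20 and those of *Txnrd1* 0.35. With the median of its chromosome (0.24) removed, *Txnrd1* was at 0.499 and no longer called, and *Gclm*, at 0.45, was not called either. On chromosome 9, the neighbours of *Gclc* and *Gsta4* had medians of -0.46 and -0.49, and *Gclc* turned to 0.36 and *Gsta4* went to -0.29 once the chromosome median of -0.37 was removed. *Gstp1*, on chromosome 19 with a median of -0.23, went to 0.40. The part of such chromosome-wide shifts in these values was not tested further.

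**Figure D4:**
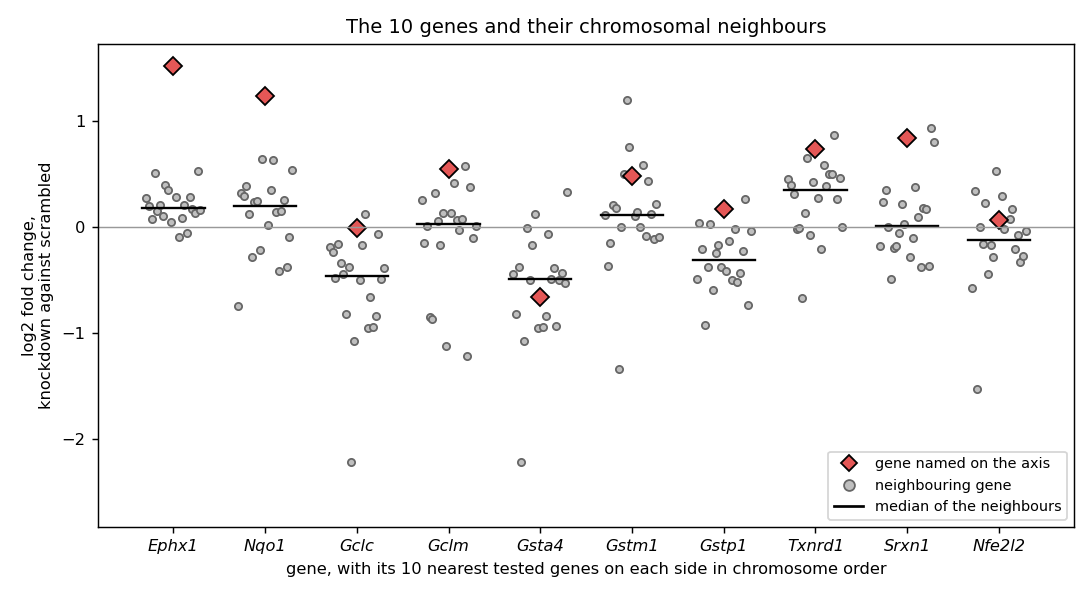
Log2 fold change (y axis) of each of the 10 genes (red diamonds) and of its 10 nearest tested genes on each side (grey circles, in chromosome order), with lines for the median of the neighbours. *Ephx1* and *Nqo1*, which unlike the neighbours belong to a list chosen on this contrast, lie above all their neighbours. *Gclc* and *Gsta4* sit among neighbours with medians of -0.46 and -0.49.

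The genes with a pattern closest to that of *Ephx1* were sought by the Euclidean distance of centred log2 normalized counts over the 4 libraries, among 4500 genes with a mean normalized count over 50. These were *Apln* (distance 0.30), *Rasa4* (0.33), *Msln* (0.45), *Tigit* (0.46) and *Tapbp* (0.49). *Apln*, the gene for the peptide apelin, had 41 and 55 reads in the scrambled and 125 and 71 in the knockdown libraries, and *Msln*, for mesothelin, had 120 and 128 and then 300 and 185. As with *Ephx1*, knockdown 1 was the highest library for each of the 5 genes in raw reads, which follows from the way they were sought.

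Beyond the 10 genes, 130 genes of the same pathways were listed in 7 lists. Of these, 116 had reads and 85 were tested, and 8 were called higher and 3 lower, with a median log2 fold change of 0.15. Of all genes tested, 2.33% were called higher and 3.22% lower, and the counts of each list stand beside these shares. Both knockdown libraries were above both scrambled ones for 34 of the 85 genes and below for 12, against 26.4% and 26.0% of all genes. The 11 called are 12.9% of those tested, and the lists were also drawn up with earlier results of these libraries known. Without scrambled 2 the number called was 7 and without knockdown 2 it was 6. All adjusted p-values here are from the edgeR quasi-likelihood test with Benjamini-Hochberg adjustment over 8670 genes.

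Of the other NRF2 targets, 2 of 19 tested genes were called higher and 0 lower (2.33% and 3.22% of all genes). The groups lay apart with the knockdown above for 8 and below for 1 (26.4% and 26.0% of all genes). *Hmox1*, heme oxygenase 1, which breaks down heme, had 92 and 98 reads in the scrambled and 194 and 203 in the knockdown libraries. The groups were far apart relative to their spread, with a log2 fold change of 1.27 (SE 0.17, edgeR adjusted p = 0.000182). *Slc48a1*, a heme transporter of lysosomes, had 152 and 198 reads and then 319 and 266, a log2 fold change of 0.95 (SE 0.15, edgeR adjusted p = 0.000709). Both were called under all 15 alternative settings. *Fth1*, ferritin heavy chain, was the most abundant gene of the list, and its log2 fold change of 0.34 was not called (edgeR adjusted p = 0.199), whereas with chromosome medians removed it was at 0.57 and called higher (edgeR adjusted p = 0.0434). *Aldh3a1* was at -0.76 (edgeR adjusted p = 0.0953), called lower without scrambled 1 (-1.23, edgeR adjusted p = 7.52e-07) and at -0.0002 without scrambled 2 (edgeR adjusted p = 0.9996).

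In the list of thioredoxin, peroxiredoxin and methionine sulfoxide genes, 2 of 17 were called higher and 1 lower (2.33% and 3.22% of all genes), and the median was -0.03. The knockdown lay above for 5 and below for 4 (26.4% and 26.0% of all genes). *Prdx6*, a peroxiredoxin that uses glutathione, had 555 and 629 reads in the scrambled and 881 and 810 in the knockdown libraries (log2 fold change 0.72, edgeR adjusted p = 0.00336). *Prdx5*, a peroxiredoxin of mitochondria and peroxisomes, moved the other way with 628 and 743 and then 386 and 339 reads (log2 fold change -0.72, edgeR adjusted p = 0.00328). The groups did not overlap for either gene, and with chromosome medians removed *Prdx5* was at -0.49 and not called (edgeR adjusted p = 0.0519). *Msrb3*, a methionine sulfoxide reductase, rose by 0.86 (edgeR adjusted p = 0.0163). Its call was lost without scrambled 2 (0.68, adjusted p = 0.141), knockdown 1 (0.96, adjusted p = 0.0531) or knockdown 2 (0.76, adjusted p = 0.0809) in the same edgeR test. It was also lost with chromosome medians removed (0.62, edgeR adjusted p = 0.120) and in all 4 DESeq2 configurations (adjusted p = 0.125 to 0.449). *Txn1*, thioredoxin itself, was at 0.24 (edgeR adjusted p = 0.340).

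For glutathione synthesis, recycling and use, 1 of 20 genes was called higher and 1 lower (2.33% and 3.22% of all genes), with a median of 0.20. The knockdown lay above for 9 and below for 2 (26.4% and 26.0% of all genes). *Gpx3*, the secreted glutathione peroxidase, showed the largest change of all listed genes, from 59 and 54 reads in the scrambled to 9 and 7 in the knockdown libraries. Its log2 fold change was -2.61 (SE 0.35, edgeR adjusted p = 0.000172), and leaving out any library kept it between -2.83 and -2.39 with the call. *Abcc1*, which exports glutathione conjugates, rose by 0.97 (edgeR adjusted p = 0.00912), from 64 and 56 to 97 and 108 reads. Without scrambled 2 it was at 0.72 (edgeR adjusted p = 0.0844) and without knockdown 2 at 0.78 (edgeR adjusted p = 0.0766). It was not called either with chromosome medians removed (0.68, edgeR adjusted p = 0.0949) or in 3 of 4 DESeq2 configurations (adjusted p = 0.0532 to 0.246). *Slc7a11*, the cystine transporter and a known NRF2 target, had too few reads to be tested for a change, with 6 and 4 in the scrambled and 7 and 2 in the knockdown libraries. *Esd*, the most abundant gene of the list, was at 0.36 (edgeR adjusted p = 0.162), and with chromosome medians removed it was at 0.72 and called higher (edgeR adjusted p = 0.00761).

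Of 22 other glutathione transferases, 5 could be tested, of which 1 was called higher and 0 lower (2.33% and 3.22% of all genes), with a median of 0.39. The knockdown lay above for 3 and below for 0 (26.4% and 26.0% of all genes). *Gsto1*, of the omega class, had 503 and 524 reads in the scrambled and 666 and 647 in the knockdown libraries (log2 fold change 0.55, edgeR adjusted p = 0.0268). It was no longer called without scrambled 2 (0.42, edgeR adjusted p = 0.279), knockdown 1 (0.65, edgeR adjusted p = 0.0514) or knockdown 2 (0.46, edgeR adjusted p = 0.117), nor by DESeq2 with the parametric fit (adjusted p = 0.153 and 0.176). *Mgst3*, a microsomal transferase, was at 0.47 (edgeR adjusted p = 0.0626). In the list of epoxide, cytochrome P450 and AHR genes, 2 of 10 were called higher and 0 lower (2.33% and 3.22% of all genes), with a median of 0.25. The knockdown lay above for 5 and below for 1 (26.4% and 26.0% of all genes). *Cyp1b1*, a P450 enzyme regulated by the aryl hydrocarbon receptor, had 130 and 216 reads in the scrambled and 277 and 252 in the knockdown libraries (log2 fold change 0.83, edgeR adjusted p = 0.00434), and was called under all 15 settings. *Tiparp*, another target of that receptor, rose by 0.79 (edgeR adjusted p = 0.0112), a call that was lost without scrambled 1 (0.69, edgeR adjusted p = 0.0614) or knockdown 2 (0.68, edgeR adjusted p = 0.0718). None of the 4 DESeq2 configurations called it (adjusted p = 0.0793 to 0.331). *Cyp1a1* had 1 read in all, and *Cyb5r3* was at 0.39 (edgeR adjusted p = 0.123).

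Among the regulators of NRF2, 0 of 11 were called higher and 1 lower (2.33% and 3.22% of all genes). The knockdown lay above for 3 and below for 4 (26.4% and 26.0% of all genes). *Fyn*, a tyrosine kinase that promotes the nuclear export of NRF2, had 47 and 59 reads in the scrambled and 26 and 17 in the knockdown libraries (log2 fold change -1.10, edgeR adjusted p = 0.0255). Without scrambled 2 (-1.10, edgeR adjusted p = 0.0511), knockdown 1 (-1.31, edgeR adjusted p = 0.0654) or knockdown 2 (-0.93, edgeR adjusted p = 0.106) it was not called, nor in any of the 4 DESeq2 configurations (adjusted p = 0.164 to 0.530). *Sqstm1*, an adaptor that binds KEAP1, was at 0.15 (edgeR adjusted p = 0.591). Of the 3 tested genes of superoxide and peroxide removal, 0 were called by edgeR or by the DESeq2 Wald test with local fit. One of them, *Sod1*, had an unadjusted p under 0.05 (log2 fold change 0.44, edgeR adjusted p = 0.0683).

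**Figure D5:**
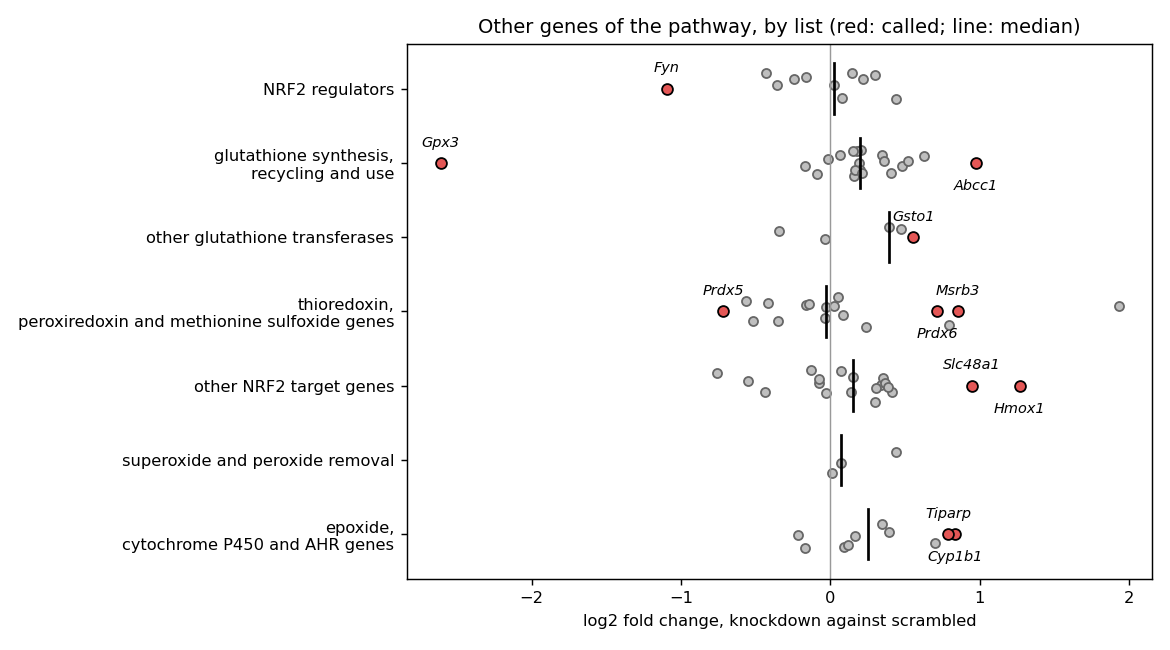
Log2 fold change (x axis) of the tested genes of each of 7 pathway lists outside the 10 genes, with red circles for called genes, grey circles for the others and lines for list medians. The called genes lie on both sides of 0, with *Hmox1* at 1.27 and *Gpx3* at -2.61 as the extremes among them.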

How the data were processed

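The deposited files hold whole counts per gene, which the authors made with HTSeq 0.9.1 from direct RNA reads (basecaller guppy) aligned by minimap2 2.17 to GRCm39. The annotation release and strand setting are not given in the sources used here. Of 56748 gene IDs, 56017 matched GENCODE vM39. Unassigned reads, 42.2 to 43.5% of each file, were left out. A count of 3 reads, used as the floor, corresponds to 1.79 to 2.44 CPM.

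The main test of knockdown against scrambled was the quasi-likelihood test of edgeR 4.0.16 under R 4.3.3, after filterByExpr and TMM scaling. DESeq2 1.42.0, in the 4 configurations of the authors with their alpha of 0.05 (set after a first run at the default), other factors, filters, the replicate block, removed chromosome medians and each library left out were alternatives. The labels pair the libraries by batch, and deviations of the libraries numbered 1 correlated at 0.00152 over 4501 genes. On simulated data for this comparison (8479 genes), edgeR recovered 32.8% of 1.5-fold, 68.7% of 2-fold and 97% of 4-fold changes, with 6 false calls.

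The 10 genes and all lists were chosen with earlier results of these data known. Named genes are the 10, *Hnrnpl*, *Keap1*, called pathway genes, the most abundant uncalled gene of each list and the 5 genes most like *Ephx1*. Others (*Aldh3a1*, *Gsta2*, *Slc7a11*, *Ephx2*, *Ephx3*, *Ephx4*, *Cyp1a1*, markers, neighbours and genes with unequal scrambled libraries) were named with their values in view.

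The last 850 bases of the canonical transcript of each of the 10 genes mapped back to its own gene at mapping quality 60 with minimap2 2.31-r1302. Exons of *Ephx1* overlap *Tmem63a* and *Gm36961*, those of *Gclm* 3 genes, and those of *Gstm1*, *Srxn1* and *Nfe2l2* 1 antisense gene each, and HTSeq sets reads that fit more than 1 gene aside as ambiguous (16.0 to 16.5% of reads). How many of those belonged to the 10 genes was not tested.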

Additional observations from a re-analysis of the deposited data

How the results depend on the processing

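Depth limited what could be tested, and genes such as *Slc7a11* or *Ephx2* had too few reads. Over all genes, 481 were called, 612 without a filter, 289 with chromosome medians removed, and 194 to 433 with 1 library left out, the lowest without knockdown 1. DESeq2 called 228 (Wald, local), 222 (likelihood ratio, local), 115 (Wald, parametric) and 112 (likelihood ratio, parametric). Of the pathway genes 11 were called, 6 to 13 with 1 library left out, and 8 (Wald, local), 7 (likelihood ratio, local), 6 (Wald, parametric) and 6 (likelihood ratio, parametric) by DESeq2. The cause of these differences was not tested.

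The log2 fold change of *Hnrnpl* was -1.03 to -0.48 with 1 library left out, and -0.78 under both DESeq2 parametric fits, with adjusted p = 0.0567 (Wald) and 0.0670 (likelihood ratio). That of *Ephx1* was 1.18 to 1.79 with 1 library left out, 1.86 within batch 1 and 1.12 within batch 2. Of the 10 genes, 3 to 5 were called higher under each setting. Over all genes, 202 of 8670 were called higher in the main test. The alternatives ran from 42 of 10492 (DESeq2 likelihood ratio, parametric) to 252 of 16728 (no filter). Since the 10 genes were chosen on this contrast, nothing is read from their count. DESeq2 did not call *Gclm* in any configuration, nor *Nqo1* with the local fit or *Srxn1* with the parametric fit. Without a filter *Gsta4* was called lower.

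With the replicate block by batch, *Ephx1* was at 1.49, *Hnrnpl* at -0.76 (edgeR adjusted p = 0.00652), 484 genes and 12 pathway genes were called, and of the 10 genes *Gclm* lost its call.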
